A study of Mus musculus with 2 samples.

Results

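The genes described here encode receptors and adaptors through which phagocytes sense zymosan, a preparation of yeast cell wall. They are 4 C-type lectin receptors (Clec7a, Clec4d, Clec4e and Clec4n), 2 toll-like receptors (Tlr2 and Tlr1), the co-receptor Cd14, the adaptors Fcer1g and Card9, and the kinase Syk. They were taken by gene symbol from the feature tables of both libraries, and their molecules were counted over barcodes that passed the cell filter. Of the 10 listed genes, 9 are among the 31053 genes of the tables. Clec7a, the beta-glucan receptor Dectin-1, was not analysed here. The question set by the design was how cells of the inflamed vitreous differed between groups of mice. The first group was given antiserum to the neutrophil chemokine receptor CXCR2 (aCXCR2), and the reference group was treated with NRS. All mice were C57BL/6 and had zymosan injected into the eye. Ly6G magnetic beads were used to enrich cells taken from the vitreous and from retinas rinsed with buffer, which were then sequenced with the 10x 3' droplet method. Each group was 1 library, with no replicate, and the number of mice behind a library, their age and the time after injection are not given in the sources used here.

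As background, C-type lectin receptors bind sugars of the fungal wall. Clec4n (Dectin-2) binds mannans, and Clec4e (Mincle) and Clec4d (MCL) bind glycolipids of microbial envelopes. These 3 receptors lack a signalling motif of their own and signal through the Fc receptor gamma chain encoded by Fcer1g. The phosphorylated chain recruits the kinase Syk, which acts through Card9 to switch on NF-kB. Tlr2 recognises wall lipoproteins together with Tlr1 or Tlr6, and Cd14 hands ligands to toll-like receptors.

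In the RefSeq gene order, Clec4n, Clec4d and Clec4e lie next to each other on chromosome 6, and their levels are compared below because they separated between clusters. RefSeq promoters (build GRCm38.p6) matched 8 of the 10 listed genes. The 250 bases before the start are printed for the neighbours Clec4d and Clec4e and for Tlr2, whose window holds a stretch of a different kind. Capitals mark matches on either strand to the PU.1 core GAGGAA, the C/EBP type TTNNGNAA and the NF-kB type (GGG, any 5 bases, CC), which occur in 23.3%, 36.8% and 45.8% of 32851 promoter windows of this length. The AP-1 type TGANTCA, found in 6.75% of windows, is in none of the 3.
Clec4d, chr6:123261857-123262106, plus strand: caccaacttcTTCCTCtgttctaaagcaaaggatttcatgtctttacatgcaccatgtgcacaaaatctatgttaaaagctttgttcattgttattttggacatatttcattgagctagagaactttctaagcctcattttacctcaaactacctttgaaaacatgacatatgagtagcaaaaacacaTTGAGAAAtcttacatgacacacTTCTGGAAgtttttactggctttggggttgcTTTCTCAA
Clec4e, chr6:123289872-123290121, minus strand: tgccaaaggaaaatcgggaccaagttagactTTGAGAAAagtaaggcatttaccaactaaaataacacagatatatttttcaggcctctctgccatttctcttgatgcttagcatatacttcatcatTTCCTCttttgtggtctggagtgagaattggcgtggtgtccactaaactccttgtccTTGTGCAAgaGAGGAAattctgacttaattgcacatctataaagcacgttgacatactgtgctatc
Tlr2, chr3:83841609-83841858, minus strand: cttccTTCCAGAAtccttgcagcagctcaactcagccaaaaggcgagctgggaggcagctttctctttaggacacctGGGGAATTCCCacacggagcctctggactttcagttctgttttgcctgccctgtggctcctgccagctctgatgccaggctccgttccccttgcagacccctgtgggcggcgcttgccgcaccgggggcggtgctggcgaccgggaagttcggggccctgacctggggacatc
The Clec4d window held 1 PU.1 core and 3 C/EBP-type matches. The Clec4e window held 2 of each. The Tlr2 window held 1 C/EBP-type match and 3 overlapping NF-kB-type matches within a single capitalised stretch. These matches describe the letters and say nothing on binding.

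The aCXCR2 library kept 4826 of 5551 barcodes and the NRS library 5655 of 7314, with medians of 10383.5 and 4759 UMIs (molecule counts) per cell in aCXCR2 and NRS. Joint clustering gave 20 clusters. From their markers, 6 were neutrophil-like, 3 macrophage-like, 1 monocyte-like and 3 photoreceptor-like, and 7 stayed unnamed. Neutrophil-like cells numbered 2588 in aCXCR2 and 2838 in NRS, macrophage-like cells 1131 and 567, and monocyte-like cells 637 and only 42. The macrophage-like and monocyte-like cells together are called mononuclear phagocytes. Although the cells are labelled as Ly6G-positive, Ly6g itself, the sort marker, stood at 122 CPM (UMIs scaled to a total of 1000000 over the cells summed) in aCXCR2 and 15.3 CPM in NRS neutrophil-like cells, and at 2.11 and 0.256 CPM in mononuclear phagocytes. Rod RNA was unequal: Gnat1, the rod transducin alpha subunit, stood at 7.70 CPM in aCXCR2 and 99.3 CPM in NRS neutrophil-like cells, and at 3.53 and 40.005 CPM in mononuclear phagocytes. The part of rod RNA in the results below was not tested. The libraries shared 53 cell barcodes among those kept. The neutrophil-like class was not made of the same clusters in both libraries. Cluster 0, the weakest match (score 0.52, where 0.5 was required), held 6.76% of the class in aCXCR2 and 50.6% in NRS. Its leading genes by fold were haemoglobins, and 0 of the first 10 were neutrophil markers. The haemoglobin Hbb-bs was seen in 2.23% of its cells, within the range of 0 to 6.44% in the other clusters of at least 20 cells, so haemoglobins were not counted against its name. The 14 neutrophil markers summed to 169601 CPM in aCXCR2 and 45936 CPM in NRS neutrophil-like cells. Clusters 1, 5 and 9 held 32.8%, 28.4% and 15.5% of the class in aCXCR2 and 4.58%, 2.995% and 6.59% in NRS. Mononuclear phagocytes came mostly from clusters 4 and 7 in aCXCR2 and from clusters 12 and 11 in NRS.

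All 9 measured genes were detected in each phagocyte class of both libraries. Their levels there lay above those in photoreceptor-like cells, which serve as a measure of background. In NRS, 800 Cd14 UMIs over 670 photoreceptor-like cells lay in 16.7% of these cells before thinning, and 665 Clec4e UMIs in 19.3%. Whether this background was free RNA or RNA of phagocytes caught with these cells was not tested. Over the mononuclear clusters Fcer1g, the shared signalling chain, and the kinase Syk varied little, while Clec4e and Cd14 varied most. Between libraries, Tlr1 was higher and Clec4n lower in aCXCR2 than in NRS neutrophil-like cells by the 2-fold threshold used below. The Tlr1 ratio, on few molecules, was above 0 in all 6 neutrophil-like clusters, and Clec4n was lower in 5 of the 6, but the pooled Clec4n call was lost under TMM scaling. Within the C1q-expressing macrophage-like cluster 4, Clec4e and Cd14 were higher in aCXCR2 than in NRS. The plot of levels by class shows the values that the next paragraphs give.

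**Figure D1:**
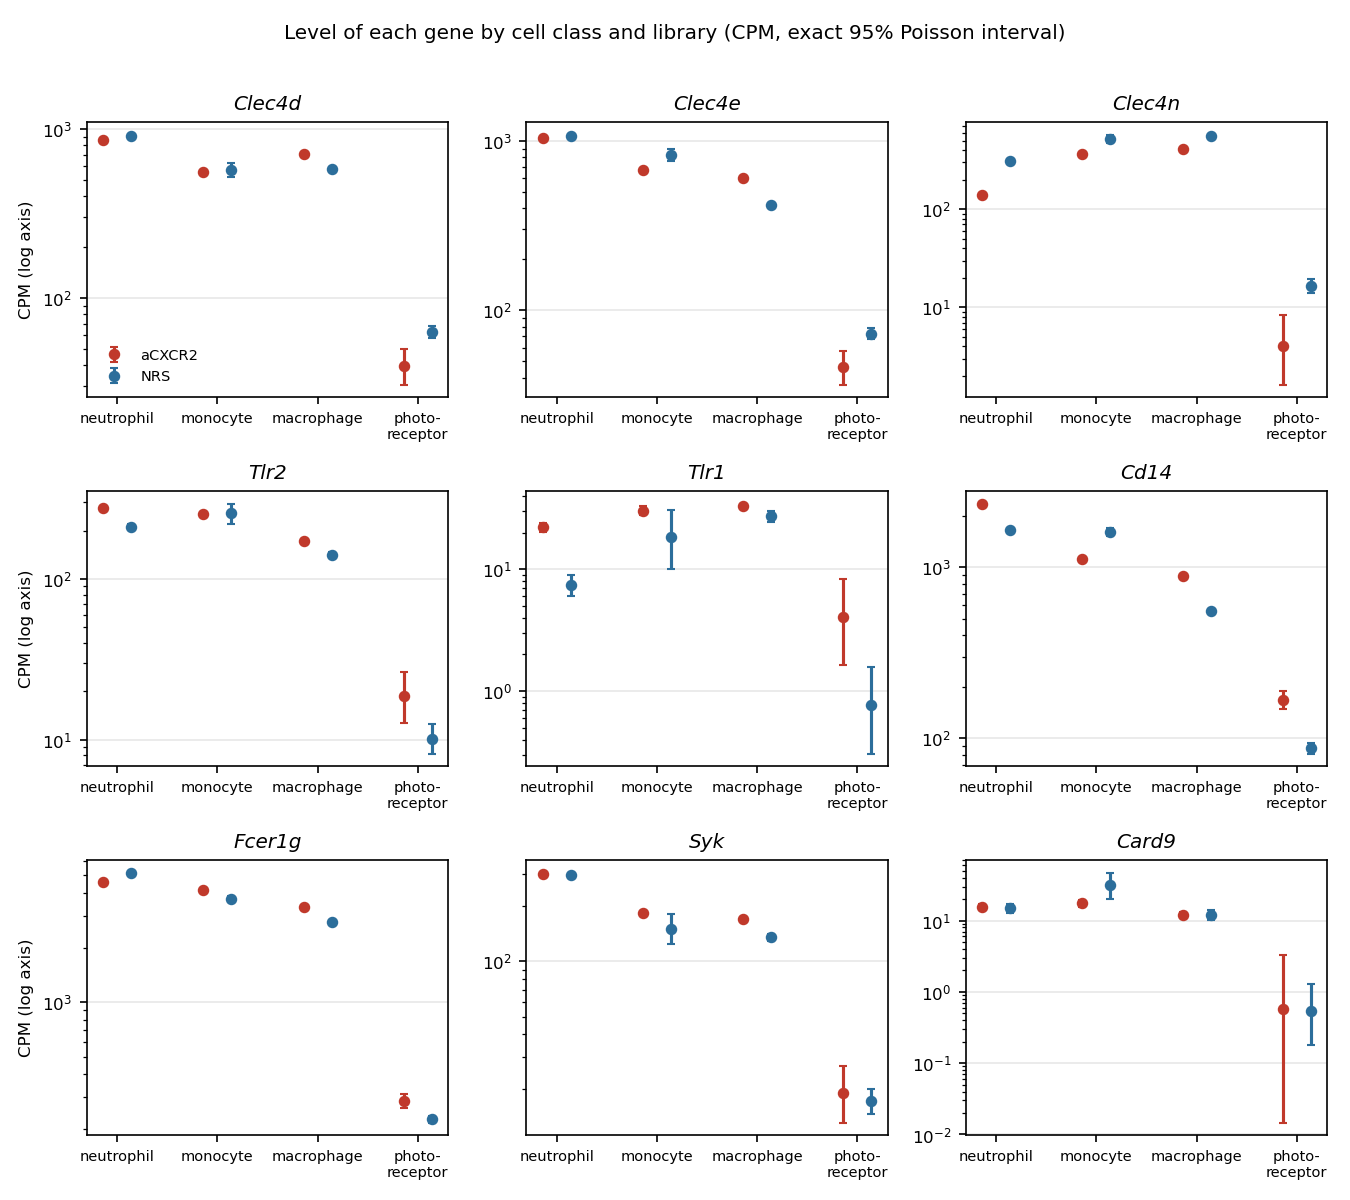
CPM of each of the 9 genes (log axis) by cell class, with aCXCR2 in red left of NRS in blue and exact 95% Poisson intervals. Each gene is far lower in photoreceptor-like cells, and Clec4n and Tlr1 show the widest gaps between libraries in neutrophil-like cells.

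Clec4d was close in level in neutrophil-like cells of both libraries, with 860 CPM in aCXCR2 (95% interval 848 to 872) and 910 CPM in NRS (894 to 927). Macrophage-like cells held 706 CPM in aCXCR2 and 580 CPM in NRS. Monocyte-like cells held 556 CPM in aCXCR2 and 570 CPM in NRS, and these intervals overlapped. Photoreceptor-like cells held 39.5 CPM in aCXCR2 and 63.0 CPM in NRS. Thus neutrophil-like cells had the highest CPM in both libraries. The order of the other 2 classes differed in aCXCR2 beyond counting error, and in NRS their intervals overlapped.

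Clec4e, the glycolipid receptor Mincle, had 1046 CPM in aCXCR2 and 1072 CPM in NRS neutrophil-like cells. It had 674 CPM in aCXCR2 and 823 CPM in NRS monocyte-like cells. Macrophage-like cells had 599 CPM in aCXCR2 and 417 CPM in NRS. The order neutrophil, monocyte, macrophage was the same in both libraries, with no overlap of counting intervals between neighbours. The background in photoreceptor-like cells was 45.9 CPM in aCXCR2 and 72.6 CPM in NRS.

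Clec4n, the mannan receptor Dectin-2, ran the other way and was lowest in neutrophils. Neutrophil-like cells had 141 CPM in aCXCR2 (136 to 146) and 308 CPM in NRS (299 to 318). Monocyte-like cells had 368 CPM in aCXCR2 and 523 CPM in NRS, and macrophage-like cells 415 CPM in aCXCR2 and 555 CPM in NRS. The aCXCR2 value was the lower in each of the 3 classes, but within macrophage-like clusters the direction turned in 2 of 3. The log2 ratio of aCXCR2 over NRS was 0.13 in cluster 11 and 0.44 in cluster 12, with intervals above 0, and -0.17 in cluster 4. In NRS the monocyte-like and macrophage-like intervals overlapped, at 473 to 577 and 543 to 567 CPM. Photoreceptor-like cells had 4.07 CPM in aCXCR2 and 16.5 CPM in NRS, so this background did not reach the phagocyte levels in either library.

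Tlr2, the lipoprotein receptor, had 276 CPM in aCXCR2 and 211 CPM in NRS neutrophil-like cells. Monocyte-like cells had 254 CPM in aCXCR2 and 256 CPM in NRS, with overlapping intervals, and macrophage-like cells 173 CPM in aCXCR2 and 141 CPM in NRS. Macrophage-like cells had the lowest CPM of the 3 classes in both libraries. Tlr1, its partner, was rare everywhere. It had 22.1 CPM (506 UMIs) in aCXCR2 and 7.41 CPM (98 UMIs) in NRS neutrophil-like cells. Monocyte-like cells had 30.4 CPM in aCXCR2 and 18.5 CPM (14 UMIs) in NRS, and macrophage-like cells 32.9 CPM in aCXCR2 and 27.2 CPM in NRS. Monocyte-like and macrophage-like intervals overlapped in both libraries, and neutrophil-like cells lay below them in both. The photoreceptor-like level of Tlr1 was 4.07 CPM in aCXCR2 and 0.764 CPM in NRS, each from 7 UMIs.

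Cd14, the co-receptor, spread widely over classes. Neutrophil-like cells had 2331 CPM in aCXCR2 and 1650 CPM in NRS. Monocyte-like cells had 1120 CPM in aCXCR2 and 1603 CPM in NRS. Macrophage-like cells had 886 CPM in aCXCR2 and 554 CPM in NRS. In NRS the monocyte-like interval of 1514 to 1696 CPM covered the neutrophil-like value, whereas in aCXCR2 the 3 classes stood apart. The background reached 167 CPM in aCXCR2 and 87.4 CPM in NRS photoreceptor-like cells.

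Fcer1g was the most frequently seen of the 9 genes. Its level was 4591 CPM in aCXCR2 and 5146 CPM in NRS neutrophil-like cells, 4131 and 3720 CPM in aCXCR2 and NRS monocyte-like cells, and 3357 and 2752 CPM in aCXCR2 and NRS macrophage-like cells. In CPM, the order neutrophil, monocyte, macrophage held in both libraries without overlap. Syk had 299 CPM in aCXCR2 and 296 CPM in NRS neutrophil-like cells, with overlapping intervals. It had 183 and 151 CPM in aCXCR2 and NRS monocyte-like cells, and 170 and 135 CPM in aCXCR2 and NRS macrophage-like cells. In CPM, a share of RNA, Syk was thus highest in neutrophil-like cells, and the monocyte-like and macrophage-like values of NRS overlapped. Card9, the adaptor downstream of Syk, was low in every class. It had 15.5 CPM in aCXCR2 and 14.9 CPM in NRS neutrophil-like cells, 17.4 and 31.7 CPM in aCXCR2 and NRS monocyte-like cells (305 and 24 UMIs), and 12.01 and 12.02 CPM in aCXCR2 and NRS macrophage-like cells. Its photoreceptor-like level rested on 1 UMI in aCXCR2 and 5 UMIs in NRS.

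Where the molecules of a gene were found followed both its level and the number and size of cells. Mononuclear phagocytes carried 85.4% of Clec4n UMIs in aCXCR2 and 56.8% in NRS, and neutrophil-like cells 12.6% in aCXCR2 and 26.7% in NRS. For Clec4e, neutrophil-like cells carried 40.3% in aCXCR2 and 51.3% in NRS. Over all genes, mononuclear phagocytes held 66.5% of UMIs in aCXCR2 and 32.9% in NRS, and neutrophil-like cells 27.9% in aCXCR2 and 27.8% in NRS. Cluster 12 alone, with 120 cells in aCXCR2 and 270 in NRS, carried 18.3% of Clec4n UMIs in aCXCR2 and 35.1% in NRS. It held 5.73% of the UMIs of all genes in aCXCR2 and 15.4% in NRS.

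A ratio of 2 or more was taken as the threshold, among genes with a mean of at least 10 CPM. In neutrophil-like cells 1 of the 9 genes was higher by this measure in aCXCR2 than in NRS and 1 was lower, where 2.04% of 6667 genes were higher and 18.8% lower. Tlr1 was the higher gene, with a log2 ratio of 1.58 (95% interval 1.26 to 1.91). Clec4n was the lower gene, with a log2 ratio of -1.13 (-1.20 to -1.06). The 16 macrophage markers moved the same way in these cells, with a sum of 1338 CPM in aCXCR2 and 2422 CPM in NRS and 0 of them at 0 in either library, and their part in the Clec4n ratio was not tested. The 9 monocyte markers summed to 750.1 CPM in aCXCR2 and 232 CPM in NRS. The median over the 9 genes was 0.01, against -0.54 over all genes tested. TMM scaling moved every ratio of this comparison by 0.68. Under it Tlr1, Cd14 and Tlr2 passed the threshold as higher in aCXCR2 and 0 genes as lower, against 8.47% and 2.83% of all genes, and Clec4d, Clec4e and Fcer1g turned from slightly lower to higher in aCXCR2. The Clec4n ratio was then -0.45. Syk differed least before rescaling, with a log2 ratio of 0.01 (-0.04 to 0.07).

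The pooled values mix clusters that the libraries did not fill alike. With cluster 0 left out, the neutrophil-like log2 ratio of Clec4n was -1.45 and that of Tlr1 was 1.56. Without cluster 0 the ratio of Cd14 was -0.08 rather than 0.50, that of Tlr2 was -0.05 rather than 0.39, and that of Clec4e was -0.60 rather than -0.04. The directions of Cd14 and Tlr2 also turned under the stricter cell filter, after removal of cells with the highest doublet scores and at a coarser clustering. At the coarser clustering a cluster led by haemoglobins, with 1610 NRS cells, had a neutrophil score of 0.32 and stayed unnamed. Under the stricter filter a cluster with 879 NRS cells had a neutrophil score of 0.24 and stayed unnamed. How far these turns repeat the loss of cluster 0 was not tested. Under the alternatives run, the log2 ratio of Clec4n stayed between -1.45 and -0.45 and that of Tlr1 between 1.32 and 2.26.

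Within clusters, Clec4n was lower in aCXCR2 in 5 of 6 neutrophil-like clusters, with intervals wholly below 0. In cluster 9, led by G0s2 and stefins, it had 127 CPM in aCXCR2 and 535 CPM in NRS, a log2 ratio of -2.08 (-2.26 to -1.90). In cluster 1, led by Retnlg and S100a9, it had 131 CPM in aCXCR2 and 479 CPM in NRS, a log2 ratio of -1.87. In cluster 2, led by Cxcl2 and Ccl3, it had 88.3 CPM in aCXCR2 and 312 CPM in NRS, a log2 ratio of -1.82. These 3 clusters passed the threshold, while 11% (cluster 9), 32.2% (cluster 1) and 9.3% (cluster 2) of all genes were that much lower. The median over all genes was -0.41 in cluster 9, -0.71 in cluster 1 and -0.36 in cluster 2, so Clec4n lay more than 1 log2 unit below the median gene in each. Clusters 5 and 10 had smaller gaps, with log2 ratios of -0.78 and -0.75, where 5.39% and 9.77% of all genes passed the threshold as lower. Cluster 0 showed none, at 257 CPM in aCXCR2 and 252 CPM in NRS.

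Tlr1 was above 0 in all 6 neutrophil-like clusters, with log2 ratios between 0.35 and 1.71, on few molecules. It passed the threshold in clusters 1, 5, 9 and 10, where 2.11%, 2.14%, 2.11% and 3.47% of all genes were that much higher. Its NRS counts per cluster were 49 UMIs in cluster 0, 22 in cluster 2 and 10 or fewer in the other 4. The interval lay above 0 in 2 clusters. These were cluster 1, with 31.6 CPM in aCXCR2 and 11.3 CPM in NRS, and cluster 9, with 26.6 CPM in aCXCR2 and 8.16 CPM in NRS. In cluster 4 of the macrophage-like cells the order was reversed, at 42.4 CPM in aCXCR2 and 58.4 CPM in NRS. Cluster 4 had the highest Tlr1 level of the named phagocyte clusters in both libraries.

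**Figure D2:**
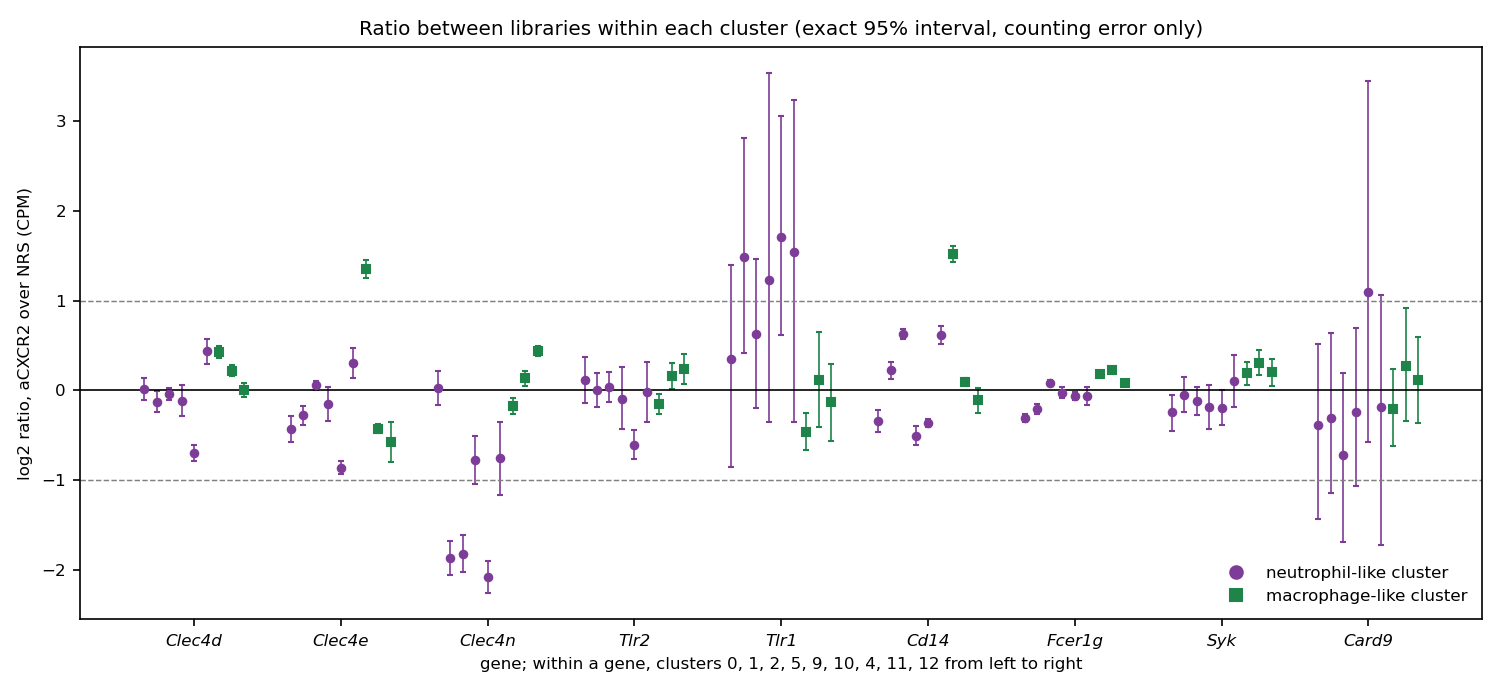
Log2 ratio of aCXCR2 over NRS for each gene in each named cluster with at least 50 cells in both libraries, with exact 95% intervals. Purple circles are neutrophil-like clusters, green squares macrophage-like clusters, and dashed lines mark 2-fold. Clec4n lies below 0 in 5 neutrophil-like clusters, and Clec4e and Cd14 lie above 1 in macrophage-like cluster 4.

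Among mononuclear phagocytes as a whole, 0 of the 9 genes passed the threshold as higher or lower in aCXCR2, against 2.87% and 2.02% of 7323 genes tested. The median over the 9 genes was 0.36, against 0.09 over all genes. TMM scaling moved these ratios by -0.01 and again left 0 genes past the threshold, against 2.85% and 2.09% of all genes. None of the 9 passed it in monocyte-like cells alone either, against 2.64% higher and 2.98% lower of all genes, or in macrophage-like cells alone, against 2.38% and 1.4%. The largest ratio was that of Cd14, at 0.67 (0.64 to 0.70), with 961 CPM in aCXCR2 and 605 CPM in NRS. Clec4e followed with 623 CPM in aCXCR2 and 437 CPM in NRS, a log2 ratio of 0.51. Clec4n had 400 CPM in aCXCR2 and 553 CPM in NRS, a log2 ratio of -0.47 that, as given above, turned within 2 of the 3 macrophage-like clusters. Without cluster 11, the weakest match of this class, the log2 ratio of Clec4e was 1.70 and that of Cd14 was 1.54. Cluster 12, lowest in both genes, held 6.79% of the whole class in aCXCR2 and 44.3% in NRS. Its part in these ratios was not tested. Clec4e was lower in aCXCR2 in 2 of the 3 macrophage-like clusters. Its log2 ratio was -0.43 in cluster 11 and -0.57 (-0.80 to -0.35) in cluster 12. For Cd14 these were 0.09 in cluster 11 and -0.11 (-0.25 to 0.03) in cluster 12.

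Cluster 4, led by Ccl8, Pf4 and the C1q genes, had the largest ratios of Clec4e and Cd14 among the macrophage-like clusters. Its cells had 581 CPM of Clec4e in aCXCR2 and 228 CPM in NRS, a log2 ratio of 1.35 (1.25 to 1.45). For Cd14 they had 734 CPM in aCXCR2 and 257 CPM in NRS, a log2 ratio of 1.52 (1.42 to 1.61). Both passed the threshold in cluster 4, where 2.69% of all genes were that much higher and 2.59% that much lower in aCXCR2. Clec4d in the same cells had 645 CPM in aCXCR2 and 481 CPM in NRS, and Tlr2 184 CPM in aCXCR2 and 204 CPM in NRS. In cluster 11, led by Cxcl3, Mmp12 and Arg1, Clec4e went the other way, at 983 CPM in aCXCR2 and 1322 CPM in NRS. Cd14 in cluster 11 had 1798 CPM in aCXCR2 and 1687 CPM in NRS.

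Over all kept cells, Tlr1 alone of the 9 genes passed the threshold as higher in aCXCR2, with 28.03 CPM in aCXCR2 and 13.1 CPM in NRS, where 3.55% of 8167 genes were that much higher. None of the 9 was lower by this measure, against 13.8% of all genes. TMM scaling moved these ratios by 0.53 and gave 4 higher genes and 0 lower, against 10.9% and 7.3% of all genes. The Clec4n gap of the neutrophil-like cells was not seen over all cells, with 311 CPM in aCXCR2 and 321 CPM in NRS. The log2 ratio of Tlr1 was 1.10, and it was 0.999 when barcodes found in both libraries were removed, just short of the threshold. In such pooled values more cells of a type and more RNA per cell cannot be told apart.

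CPM is a share of RNA, and mononuclear phagocytes were deeper than neutrophil-like cells. Their medians were 30037.5 UMIs in aCXCR2 and 23392 in NRS, against 7638.5 and 4383.5. Counted per cell, the order of Clec4d, Clec4e, Tlr2, Cd14, Fcer1g, Syk and Card9 between these classes was the reverse of that in CPM in both libraries. Clec4n and Tlr1 were higher in mononuclear phagocytes by both measures. In NRS, 609 mononuclear phagocytes held 9463 Cd14 UMIs and 2838 neutrophil-like cells 21824. By CPM, 2 genes passed the threshold between cell classes in aCXCR2 and 4 in NRS. In aCXCR2, Clec4n was 2.84-fold higher in mononuclear phagocytes (400 CPM) than in neutrophil-like cells (141 CPM), and Cd14 was lower, with 961 CPM in mononuclear phagocytes and 2331 CPM in neutrophil-like cells. In that comparison 27.5% of 6943 genes were higher by the threshold and 10.7% lower in mononuclear phagocytes. In NRS, Tlr1 was 3.61-fold higher in mononuclear phagocytes, with 26.8 CPM there and 7.41 CPM in neutrophil-like cells. Clec4e, Cd14 and Syk were lower by the threshold in NRS mononuclear phagocytes, while 13.6% of 7545 genes were higher and 20.3% lower. Clec4e had 437 CPM in mononuclear phagocytes and 1072 CPM in neutrophil-like cells of NRS, Cd14 had 605 CPM in mononuclear phagocytes and 1650 CPM in neutrophil-like cells, and Syk 136 and 296 CPM in the same order. The direction of these 5 genes between classes was the same in both libraries and under TMM scaling. TMM scaling moved these ratios by -0.30 in aCXCR2 and 0.31 in NRS. Clec4e and Syk then missed the threshold in NRS, at -0.99 and -0.82, and passed it in aCXCR2, at -1.05 and -1.08, while Clec4n passed it in NRS, at 1.15. The shares of all genes higher and lower were then 20.5% and 15.1% in aCXCR2 and 18.3% and 12.7% in NRS. Without cluster 11 the log2 ratio in NRS was -2.63 for Clec4e and -2.55 for Cd14.

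**Figure D3:**
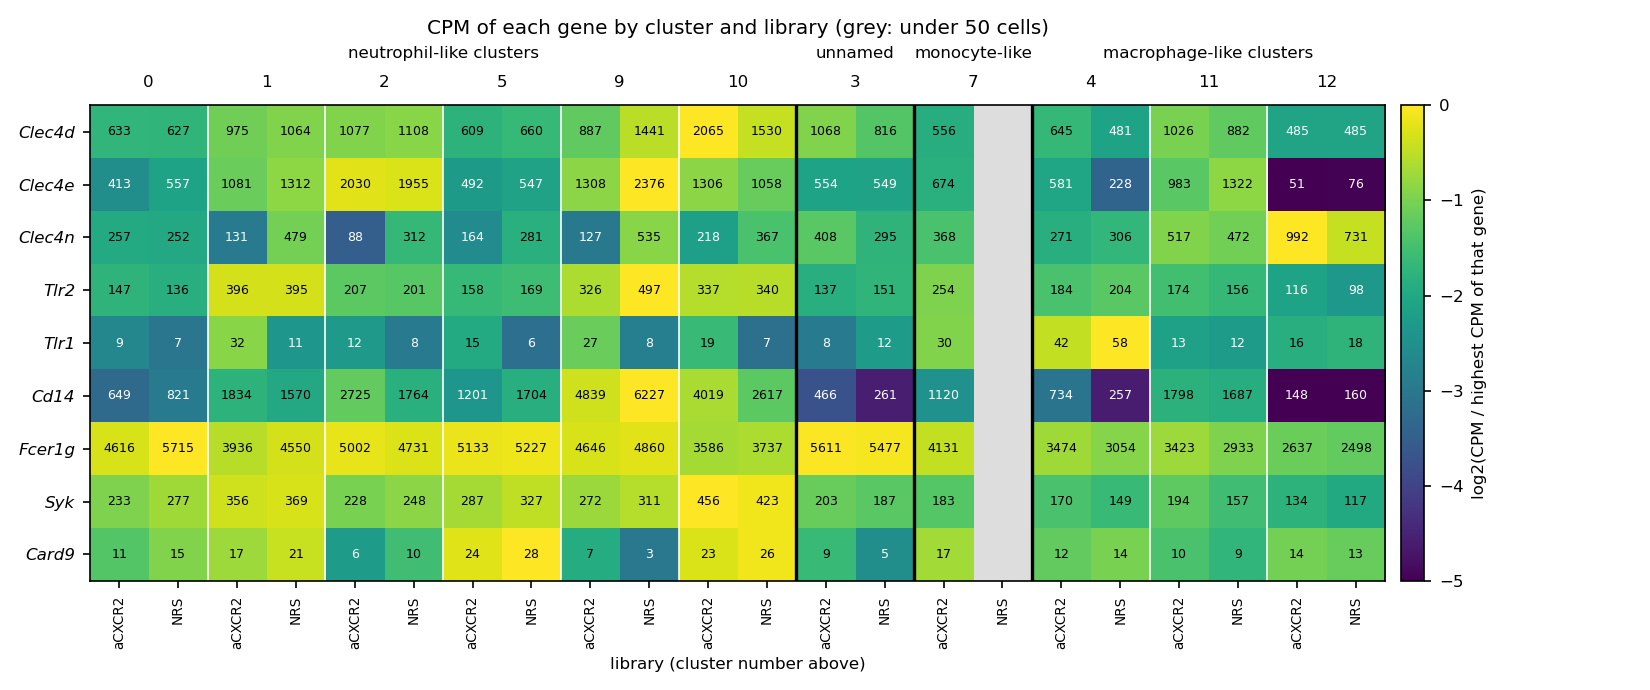
CPM of each gene (numbers in the cells) by cluster, with aCXCR2 left of NRS in each pair, coloured by log2 of the level over that gene's highest level. Clec4e and Cd14 are darkest in macrophage-like cluster 12, where Clec4n is brightest. Fcer1g is bright throughout, and the NRS column of cluster 7 is grey because it held 42 cells.

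Macrophage-like cluster 12, led by Spp1, Gpnmb and Trem2, had high Clec4n beside low Clec4e and Cd14. It had 50.8 CPM of Clec4e in aCXCR2 and 75.6 CPM in NRS, close to the 45.9 and 72.6 CPM of aCXCR2 and NRS photoreceptor-like cells. Clec4n was highest here of all named clusters, at 992 CPM in aCXCR2 and 731 CPM in NRS. Clec4d, encoded between Clec4n and Clec4e, had 485 CPM in both libraries. Cd14 was lower here than in the other named phagocyte clusters of at least 50 cells, at 148 CPM in aCXCR2 and 160 CPM in NRS. Photoreceptor-like cells gave 167 CPM in aCXCR2 and 87.4 CPM in NRS. They were shallower, with medians of 5899.5 and 5671.5 UMIs, against 43497.5 and 11691 in cluster 12. In aCXCR2, 120 cells of cluster 12 held 694 Cd14 and 238 Clec4e UMIs, and 208 photoreceptor-like cells 288 and 79. In NRS, 270 cells of cluster 12 held 1170 and 553, and 670 photoreceptor-like cells 800 and 665. At such unlike depth the CPM values do not show how much of either gene was free RNA. For each Clec4e UMI, cluster 12 held 19.5 Clec4n UMIs in aCXCR2 (17.1 to 22.4) and 9.67 in NRS (8.86 to 10.6). The part of free RNA in the Clec4e UMIs there was not tested, and any such part would make these ratios too low. In cluster 11 the same ratio was 0.526 in aCXCR2 and 0.357 in NRS, and in neutrophil-like cluster 2 it was 0.0435 in aCXCR2 and 0.159 in NRS. High Clec4n with low Clec4e was thus seen in cluster 12 of both libraries.

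Across the mononuclear clusters the highest level of Clec4e was 19.4 times the lowest in aCXCR2 and 17.5 times in NRS. For Cd14 these ratios were 12.1 in aCXCR2 and 10.5 in NRS. The lowest level was that of cluster 12 in each case. Any free RNA in that level, which was not tested, would make these ratios too low. For Fcer1g they were 1.57 in aCXCR2 and 1.22 in NRS, and for Syk 1.45 in aCXCR2 and 1.34 in NRS. The shared chain and kinase thus spread less over these clusters than the receptor Clec4e or the co-receptor Cd14. Other receptors spread far less than Clec4e, with ratios of 2.11 in aCXCR2 and 1.83 in NRS for Clec4d. For Clec4n they were 3.66 in aCXCR2 and 2.39 in NRS, and for Tlr1, on few molecules, 3.21 and 4.77. For Tlr2 the ratios were 2.19 and 2.08, so the wide spread was not shared by all receptors. The ratios cover 4 clusters in aCXCR2 and 3 in NRS.

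Neutrophil-like clusters also differed. Cd14 ran between 649 CPM (cluster 0) and 4839 CPM (cluster 9) in aCXCR2, and between 821 CPM (cluster 0) and 6227 CPM (cluster 9) in NRS. Clec4e was highest in cluster 2 in aCXCR2, at 2030 CPM, and in cluster 9 in NRS, at 2376 CPM. Clec4d was highest in cluster 10 in both libraries, at 2065 CPM in aCXCR2 and 1530 CPM in NRS. Cluster 10, led by Hdc, Cxcr2 and Il1r2, also had the highest Syk, at 456 CPM in aCXCR2 and 423 CPM in NRS. Card9 had its highest level in cluster 5, led by Wfdc21 and Pglyrp1, at 23.7 CPM in aCXCR2 and 28.1 CPM in NRS. Card9 was lowest in cluster 2 in aCXCR2, at 5.88 CPM from 17 UMIs, and in cluster 9 in NRS, at 3.50 CPM from 3 UMIs.

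Cluster 3 stayed unnamed because no marker list reached the required score. Its best score was 0.45, for the macrophage list, and its neutrophil score was -0.35. The cluster was led by Itpr2, Gadd45b and Gdf15 and held 74 cells in aCXCR2 and 799 cells in NRS. It had the Fcer1g level of a phagocyte, at 5611 CPM in aCXCR2 and 5477 CPM in NRS. Cd14 was low there, at 466 CPM in aCXCR2 and 261 CPM in NRS, and Clec4n stood at 408 CPM in aCXCR2 and 295 CPM in NRS. When cluster 3 was added to the neutrophil-like class, the log2 ratio of Clec4n was -1.04 and that of Tlr1 was 1.32.

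Shares of cells with a UMI were read at equal depth. With each cell thinned to 1000 UMIs, Fcer1g was seen in 95.4% of aCXCR2 and 95.02% of NRS neutrophil-like cells, and in 94.8% of aCXCR2 and 91.9% of NRS macrophage-like cells. In photoreceptor-like cells the same reading gave 11.4% in aCXCR2 and 12.9% in NRS. Unthinned neutrophil-like cells had a median of 7638.5 UMIs in aCXCR2 and 4383.5 in NRS, and unthinned photoreceptor-like cells 5899.5 in aCXCR2 and 5671.5 in NRS. In all, 45 aCXCR2 and 185 NRS neutrophil-like cells were too shallow and were left out.

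Clec4n was seen in 11.3% of aCXCR2 neutrophil-like cells (10.1 to 12.6%) and 20.1% of NRS ones (18.6 to 21.7%). Photoreceptor-like cells gave 0 of 202 in aCXCR2, which allows up to 1.49% (3 counts of 202), and 1.38% in NRS. Without thinning the Clec4n shares were 38.0% in aCXCR2 and 44.3% in NRS. Intervals stood apart for 5 of the 9 genes in neutrophil-like cells, and all 5 but Clec4n had the larger share in aCXCR2. How many of all genes had intervals apart is not given here, so this count describes the 9 genes alone. Cd14 was seen in 62.1% of aCXCR2 and 45.0% of NRS cells, Clec4e in 49.9% of aCXCR2 and 45.5% of NRS cells, Tlr2 in 21.7% of aCXCR2 and 16.9% of NRS cells, and Tlr1 in 2.20% of aCXCR2 and 0.490% of NRS cells. The NRS share of Tlr1 was close to the 0.461% (3 counts) that 0 of 651 NRS photoreceptor-like cells allows, so in this single draw it could not be told from background. Expected over all draws were 0.746% of NRS neutrophil-like and 0.0214% of NRS photoreceptor-like cells, the latter from 7 UMIs before thinning. The order for Clec4e differed between its share of cells and its pooled CPM, so no direction is given. Clec4d was seen in 52.4% of aCXCR2 and 51.6% of NRS cells, and Syk in 25.3% of aCXCR2 and 26.7% of NRS cells, with overlapping intervals. In mononuclear phagocytes 5 of the 9 genes had the larger share in aCXCR2 with intervals apart and 0 the smaller. For this count, too, none over all genes is given. Clec4e was seen in 39.0% of aCXCR2 and 24.2% of NRS cells, Cd14 in 49.5% of aCXCR2 and 36.2% of NRS cells, and Tlr2 in 17.5% of aCXCR2 and 12.4% of NRS cells. Syk was seen in 17.2% of aCXCR2 and 10.7% of NRS cells, and Fcer1g in 95.9% of aCXCR2 and 92.4% of NRS cells.

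**Figure D4:**
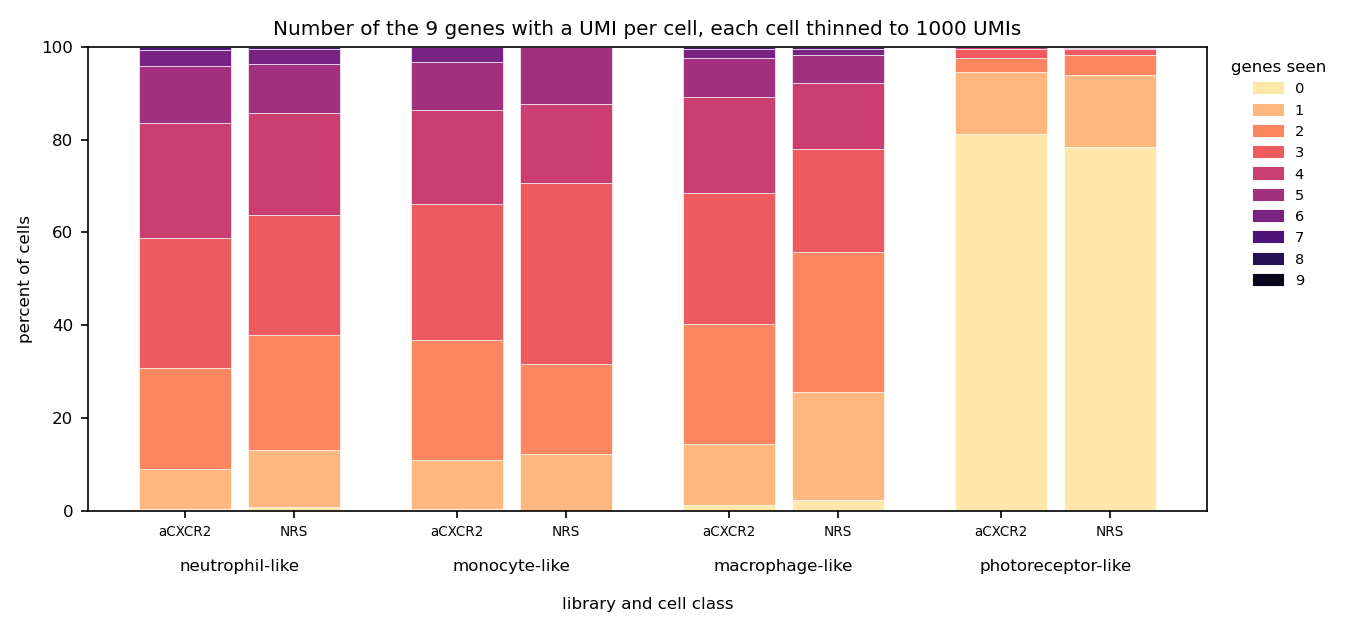
Percent of cells with 0 to 9 of the genes seen, each cell thinned to 1000 UMIs, by class and library with aCXCR2 left of NRS. Phagocyte classes have medians of 2 or 3 genes, whereas 81.2% of aCXCR2 and 78.5% of NRS photoreceptor-like cells show none.

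At that depth a neutrophil-like cell showed a mean of 3.22 of the 9 genes in aCXCR2 and 3.03 in NRS. Macrophage-like cells showed 2.89 in aCXCR2 and 2.48 in NRS. At least 1 of the lectin receptors Clec4d, Clec4e and Clec4n was seen in 75.3% of aCXCR2 and 73.2% of NRS neutrophil-like cells, and in 74.4% of aCXCR2 and 63.4% of NRS macrophage-like cells. The signalling chain Fcer1g was seen with a lectin receptor in 71.6% of aCXCR2 and 69.6% of NRS neutrophil-like cells. Clec4d and Clec4e, whose proteins pair on the cell surface, were seen together in 29.8% of aCXCR2 and 28.5% of NRS neutrophil-like cells. In macrophage-like cells they were seen together in 19.6% in aCXCR2 and 12.97% in NRS. Photoreceptor-like cells gave 0.495% in aCXCR2 and 0.768% in NRS for that pair. Tlr2 was seen with a lectin receptor in 17.97% of aCXCR2 and 13.6% of NRS neutrophil-like cells. Tlr2 and Tlr1 together were seen in only 14 of 2543 aCXCR2 and 2 of 2653 NRS neutrophil-like cells.

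The wider pathway was described by lists of receptors, signalling genes and response genes, which were chosen with earlier results of these data known. In neutrophil-like cells, none of the 9 other receptors that passed the CPM minimum were past the threshold between libraries. Itgam, the alpha chain of complement receptor 3, which binds beta-glucan, had 515 CPM in aCXCR2 and 332 CPM in NRS, and under TMM scaling it passed as higher. None of the 16 proximal signalling genes or 15 toll-like receptor signalling genes that passed were 2-fold apart either, with medians of -0.01 and -0.37, against -0.54 over all genes. Under TMM scaling, 1 gene of each of these lists and 2 other receptors were higher in aCXCR2 by the threshold. Among 10 negative regulators, Socs1 was higher (71.3 CPM in aCXCR2 and 22.7 CPM in NRS) and Ptpn22 lower (5.60 CPM in aCXCR2 and 15.8 CPM in NRS). Among 9 response genes, 2 were 2-fold lower, Tnf and Cxcl1, a share near the 18.8% of all genes that were that much lower. Tnf had 169 CPM in aCXCR2 and 362 CPM in NRS, and Cxcl1 18.7 CPM in aCXCR2 and 85.2 CPM in NRS. Under TMM scaling Tnf and Ptpn22 were no longer 2-fold lower, with log2 ratios of -0.43 and -0.82. Then 2 negative regulators were higher and 0 lower, and 3 response genes were higher and 1 lower, against 8.47% higher and 2.83% lower of all genes.

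In mononuclear phagocytes 2 of 13 other receptors were higher by the threshold and 2 lower in aCXCR2 than in NRS. The shares over all genes, for this and the other lists below, were 2.87% higher and 2.02% lower. The lectin receptors Clec12a (148 CPM in aCXCR2 and 68.8 CPM in NRS) and Clec4a2 (295 CPM in aCXCR2 and 139 CPM in NRS) were higher. The scavenger receptors Marco (87.2 CPM in aCXCR2 and 354 CPM in NRS) and Cd36 (21.9 CPM in aCXCR2 and 163 CPM in NRS) were lower. Of 17 proximal signalling genes, Blnk, a Syk substrate, was lower, with 10.5 CPM in aCXCR2 and 50.7 CPM in NRS. Of 15 toll-like receptor signalling genes none were 2-fold apart. Of 10 negative regulators, 4 were higher and 0 lower, among them Socs1 with 53.6 CPM in aCXCR2 and 9.65 CPM in NRS. Of 6 response genes, 1 was higher, Il1b, with 1780 CPM in aCXCR2 and 564 CPM in NRS.

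Tlr6, the other partner of Tlr2 and the neighbour of Tlr1 in the gene order, ran opposite to Tlr1 between classes in CPM. It had 17.6 CPM in mononuclear phagocytes and 37.3 CPM in neutrophil-like cells of aCXCR2. In NRS it had 14.3 CPM in mononuclear phagocytes and 45.6 CPM in neutrophil-like cells. Its log2 ratio was -1.09 in aCXCR2 and -1.68 in NRS, against 0.53 and 1.85 for Tlr1, and TMM scaling turned none of these. Counted per cell, both Tlr6 and Tlr1 were higher in mononuclear phagocytes in each library, so the contrast holds for the share of RNA only.

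Genes most like each member were taken from 3096 genes over 29 units of cluster and library. These units share libraries, depth and the contrast of phagocytes with photoreceptors, so the values only describe these data. Clec4e was most like Acod1 (r = 0.95), the itaconate-making enzyme, and then Slpi and Ets2. Clec4d was most like Cd53 (r = 0.97), Clec4n was most like Tgfb1 (r = 0.93), and Tlr2 was most like the kinase gene Lyn (r = 0.95). Syk was most like Spi1 (r = 0.98), which encodes the transcription factor PU.1, and Fcer1g was most like Sh3bgrl3 (r = 0.98). Cd14 was most like Snx18 (r = 0.95), Card9 was most like Pik3cd (r = 0.90) and Tlr1 was most like Ccl6 (r = 0.82). Between members, Clec4d and Syk were the most alike of the pairs with a lectin receptor (r = 0.95), and the neighbours Clec4e and Clec4n had r = 0.48.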

How the data were processed

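Cells of the 2 libraries were read from deposited matrices that hold unnormalized whole-number UMI counts of genes by barcodes; per the file headers the software version is 3.0.0. Cell Ranger and Seurat, with no version, and the human build GRCh38 are listed per the submitters' processing notes, whereas the feature tables hold mouse gene IDs. Which build served for alignment is therefore not given in the sources used here. The 10 listed genes and all other lists were chosen with earlier results of these data known, and the rule that names clusters was set after the data had been seen.

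The cell filter kept barcodes with 500 or more UMIs, 200 or more genes and a mitochondrial share of 10% or less. Both libraries were clustered together without correction for library, on 2000 variable genes that left out the listed genes, 30 principal components and 15 neighbours, with the Leiden method at resolution 1. A cluster took a class name when its marker list scored at least 0.5 (mean log2 ratio to the median cluster, prior 100 CPM) with at least 3 markers seen in 5% of cells, and when markers of no other class led it, where a list could lead only with 3 or more markers seen in 5% of the cluster's cells. A cluster stayed unnamed if the list of a second class also scored at least 0.5, or if it had under 20 cells. The same held for a cluster of shallow cells that none of its own markers led. Doublets were left in, and an alternative removed 186 aCXCR2 and 256 NRS barcodes with the highest scores. CPM is the sum of a gene's UMIs over the cells of a class in a library, scaled by the sum over all genes. Intervals are exact 95% Poisson (CPM), Clopper-Pearson (shares) or conditional (ratios), and cover counting error only; the limit that a count of 0 allows is 3 counts. Genes with a mean of at least 10 CPM over the units compared were set against a 2-fold threshold. With 1 library per group no test was possible, and no p-value is given. For shares of cells, each cell was thinned to 1000 UMIs and shallower cells were left out.

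Genes other than the listed ones are named by rule. From each pathway list these are the members with the 2 largest and 2 smallest log2 ratios. For likeness, they are the 3 genes with the highest Pearson r of log2(CPM + 10) over units of at least 50 cells, among genes with a mean of at least 50 CPM. In simulated counts for the neutrophil-like comparison on 6503 genes, the threshold was passed by 66 of 66 genes simulated at 3-fold and by 0 of 71 at 1.5-fold. With folds set to either side of the threshold, this checks the calculation alone and not the calls between libraries. Alternatives changed the cell filter, scaling, CPM minimum, weighting of cells, doublets, clustering, naming and thinning. For TMM factors edgeR 4.0.16 (R 4.3.3) was used, and for the rest leidenalg 0.10.2, pandas 2.3.3, scipy 1.17.1 and numpy 2.4.6 in Python 3.11.15.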

Additional observations from a re-analysis of the deposited data

How the results depend on the processing

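No paired analysis was possible because each group is 1 library. Of 621 values of single genes under the alternatives, 348 stayed within the counting interval of the reported value, 112 lay above it and 161 below it, and 38 changed sign, 11 of them under the 2 other scalings; none of these had been 2-fold apart. Counts of genes 2-fold apart depended on scaling. Shares of all genes past the threshold are given above for the reported and TMM settings only. Under the other alternatives no such share is given here, so those counts describe the listed genes alone and cannot be set against all genes. In neutrophil-like cells (1 higher and 1 lower in aCXCR2), TMM factors gave 3 higher and 0 lower, and median-of-ratios factors 2 and 0. Over all cells (1 higher), they gave 4 and 3 higher. For mononuclear phagocytes against neutrophil-like cells, 1 gene was lower in aCXCR2 and both scalings gave 3; in NRS, with 1 higher and 3 lower, both gave 2 higher and 1 lower. A minimum of 50 CPM, which removes Tlr1, gave 0 higher genes in neutrophil-like cells, over all cells and between the classes in NRS. Removing the barcodes found in both libraries, chosen after seeing the data, gave 0 higher over all cells. Leaving out cluster 11 gave 2 higher in mononuclear phagocytes, against 0. Between the classes in NRS, the strict cell filter, removal of doublet scores and resolution 0.5 each gave 5 lower genes. For shares of cells, 4 genes were higher in aCXCR2 neutrophil-like cells with intervals apart, and 7 without thinning; in mononuclear phagocytes 5 were higher and 0 lower, and 1 was lower when thinned to 2000 UMIs or over all draws. Causes of the other shifts were not tested. Depth limits Tlr1 and Card9 most.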

Other observations

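Cells outside the named classes also carried these genes. Unnamed cluster 15, led by crystallins of the lens, held 7 cells in aCXCR2 and 75 in NRS. Its NRS cells had 4446 CPM of Fcer1g and 1635 CPM of Clec4e, which are phagocyte levels, and 0 Card9 UMIs. Unnamed cluster 8, which scored for both photoreceptors and neutrophils, held 131 cells in aCXCR2 and 547 in NRS. Its Clec4e level was 720 CPM in aCXCR2 and 732 CPM in NRS, and its Clec4n level 144 CPM in aCXCR2 and 225 CPM in NRS.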
